A study of Mus musculus with 6 samples.

Results

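The mouse array annotation names 35 voltage-gated calcium and sodium channel genes among the 18193 genes that have a probe set of their own. They were taken by symbol, as every measured gene of 6 families: the calcium channel pore (Cacna1), alpha2delta (Cacna2d), beta (Cacnb) and gamma (Cacng) subunits, and the sodium channel pore and beta (Scn) subunits. Of these, 24 are calcium channel genes and 11 are sodium channel genes. Other genes of these families were not analysed here. Each gene is represented by 1 probe set, the one with the highest mean log2 intensity over all arrays.

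The cells came from the retina of C57BL/6 mice at postnatal day 6, dissociated with papain and purified by flow cytometry. The Hb9 group holds cells positive for both GFP and Thy1 that the labels call Hb9 retinal ganglion cells, and the Drd4 group holds GFP-positive, Thy1-positive cells called Drd4 retinal ganglion cells. The Thy1 group holds Thy1-positive cells, selected with an antibody and with no GFP gate stated, so it is a mixed reference and not a further subtype. All groups share the Thy1 gate, the strain and the age, and each has 2 arrays whose cells came from different litters. The construct that carries GFP in each line and the number of animals pooled for an array are given by none of the sources used here. The question the design puts is which genes separate the Hb9 and Drd4 ganglion cells from each other and from Thy1-positive cells at large.

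Voltage-gated calcium channels are built on a pore-forming alpha1 subunit that sets the current type (L, P/Q, N, R or T). In most types it is joined by a beta subunit on the inner side of the membrane and an alpha2delta subunit on the outer side, which raise the number of channels at the surface and shift their gating. Voltage-gated sodium channels have a single large alpha subunit that forms the pore and carries the upstroke of the action potential, with small beta subunits that tune kinetics and adhesion. Ganglion cells are the output neurons of the retina, and they use sodium channels to send spikes along the optic nerve. Their calcium channels trigger transmitter release from axon terminals and shape dendritic responses.

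The arrays were alike in scale, with median intensities from 45.5 to 47.7. Log2 values over all genes correlated at 0.988 to 0.992 within a group and at 0.963 to 0.981 between groups. Of 7 ganglion cell markers, all were above background in every group, with summed intensities between 22053 and 23952. Within that sum Isl1, a transcription factor gene, was 3.34-fold lower in Drd4 than in Thy1 (-1.74, limma adjusted p = 3.49e-05) and 3.80-fold higher in Hb9 than in Drd4 (1.93, limma adjusted p = 1.96e-05), and Thy1, the gene of the sorting gate, read higher in the Drd4 cells than in the reference (0.52, limma adjusted p = 0.0149). Markers of other cells moved with the groups. Summed over 7 microglial genes, intensity was 3528 to 6536 in Thy1, 802 to 972 in Hb9 and 557 to 1389 in Drd4, and 7 of 7 were lower in each line. Summed over 8 pericyte and vessel wall genes, it was 7891 to 9056 in Thy1, 1590 to 1981 in Hb9 and 307 to 1161 in Drd4, with 4 of 8 lower in Hb9 and 5 of 8 in Drd4. Summed over 5 Muller glia genes, it was 2878 to 2998 in Thy1, 1563 to 1612 in Hb9 and 1628 to 1897 in Drd4, and Apoe and Vim were lower in each line. The other members, Glul, Slc1a3 and Rlbp1, passed against Thy1 in neither line, and Rlbp1 was not above background on any array. All 3 genes of dividing cells were also lower in each line than in Thy1. Photoreceptor, amacrine and endothelial lists had 0 members past limma's threshold in any comparison, and at most 1 member of each had an unadjusted p under 0.05 in any of them. Some control ratios moved with the Hb9 arrays. The ratio of the 5′ to the 3′ probe set for 18S ribosomal RNA was 1.12 and 1.19 in Hb9, 5.12 and 5.23 in Drd4, and 3.91 and 3.21 in Thy1. The 3′ to 5′ ratio for Gapdh was 4.65 and 5.04 in Hb9, 4.45 and 3.84 in Drd4, and 4.10 and 3.99 in Thy1. Both Hb9 arrays thus stood above all others, by a narrow margin over Drd4 replicate 1. The 3′ to 5′ ratio for Actb did not set the Hb9 arrays apart, at 4.02 and 4.81 in Hb9, 4.88 and 4.58 in Drd4, and 5.06 and 4.64 in Thy1. In sorted bulk samples, fewer cells of a type and less RNA per cell cannot be told apart.

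Most channel genes were detected. In what follows a level is a log2 intensity, and a probe set is called above background on an array when it exceeds the brightest bacterial control probe set there, which stood between 4.95 and 5.38. By that reference 27 of 35 channel genes (77.1%) were above background on both arrays of every group, against 65% of all genes. Cacna1s, Scn10a and Scn4b were not above background on any array. The other 5, Cacna1h, Cacna2d3, Cacna2d4, Cacng1 and Cacng6, passed on some arrays and not on others. Levels of different probe sets cannot be set against each other, so the genes are compared between groups and not ranked by brightness.

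Few channel genes separated the groups. A gene is said to have risen or fallen where its adjusted p from limma, with Benjamini-Hochberg adjustment over all 18193 genes, was under 0.05. Against Thy1, 2 channel genes rose in Hb9 (Cacna1h and Cacnb1), where 3.52% of all genes were higher, and 1 fell (Cacna2d3), where 3.19% were lower. In Drd4, 1 rose (Cacna1c), where 1.51% of all genes were higher, and 2 fell (Cacna2d3 and Cacng5), where 3.96% were lower. Between the lines, 1 was higher in Hb9 (Cacna2d3), against 4.06% of all genes, and 3 were lower in Hb9 (Cacna1c, Cacna1d and Scn2a), against 2.06%. Both comparisons with Thy1 use the same Thy1 arrays. With direction left aside, the called share of the 35 was 8.57% in each comparison with Thy1 and 11.4% between the lines, beside 6.71%, 5.47% and 6.12% of all genes. The median difference over the channel genes was 0.02 for Hb9 minus Thy1, 0.04 for Drd4 minus Thy1 and -0.06 for Hb9 minus Drd4. Over all genes these medians were 0.04, 0.02 and 0.04.

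**Figure D1:**
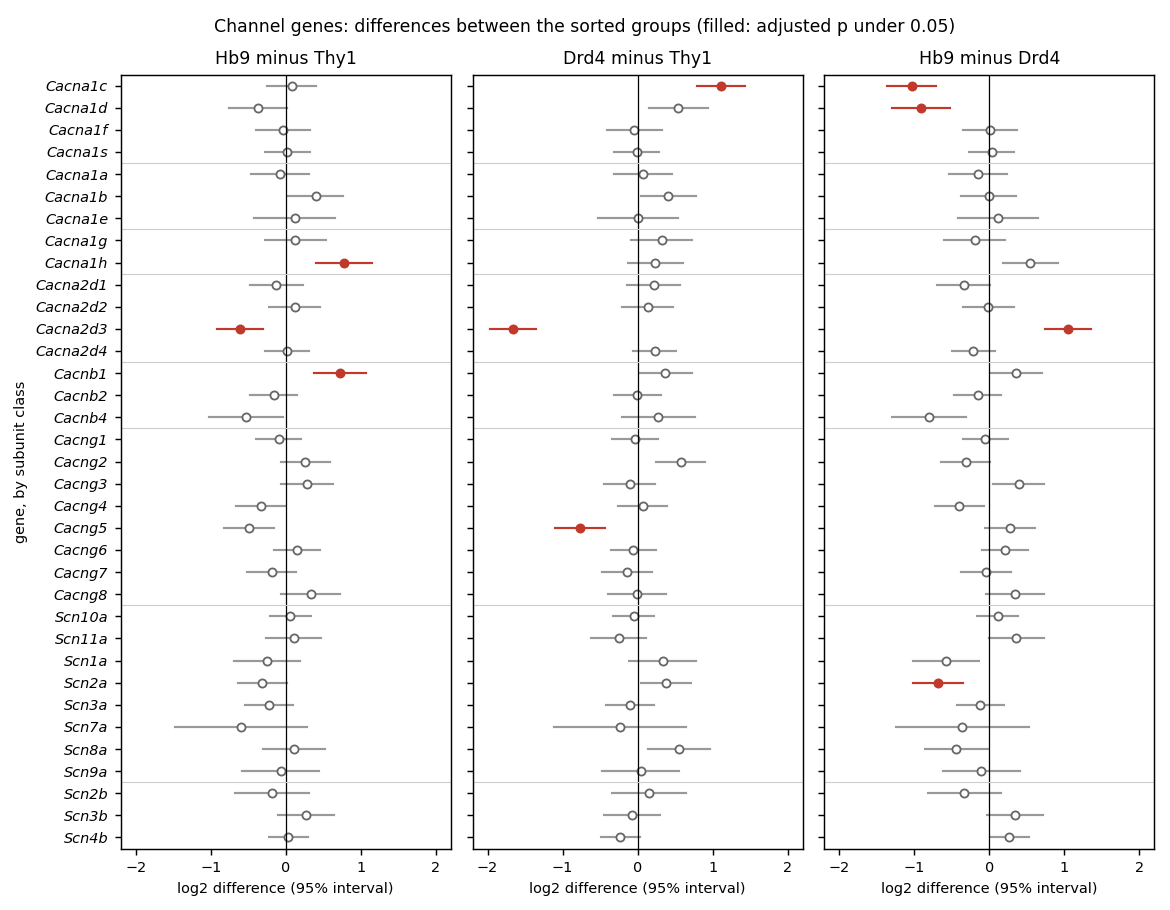
Log2 difference of each of the 35 channel genes (points) with its 95% interval from limma (bars), for Hb9 minus Thy1, Drd4 minus Thy1 and Hb9 minus Drd4, ordered by subunit class. Filled red points have an adjusted p under 0.05, and they number 3, 3 and 4 from left to right while most other points lie near 0.

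The precision of these values limits what a missed call means. The median standard error of a difference was 0.16 on the log2 scale. The 95% interval lay within 2-fold in either direction for 31 of 35 genes in each comparison with Thy1 and for 28 of 35 between the lines. It lay within 1.5-fold for 18, 19 and 13 of them. Unadjusted p-values from limma were under 0.05 for 7, 9 and 12 of the 35 (20%, 25.7% and 34.3%), beside 23.1%, 14.5% and 19.7% of all genes.

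By the brightest probe set of each gene, the largest called difference in a pore subunit lay in the L-type class, whose channels open at strong depolarisation, stay open long and couple membrane voltage to calcium-dependent gene expression. Cacna1c, which encodes the L-type pore Cav1.2, read 7.64 and 7.61 in Drd4, 6.64 and 6.54 in Hb9, and 6.55 and 6.47 in Thy1. Both Drd4 arrays stood above all 4 others, and Hb9 and Thy1 were close together. Cacna1c rose 2.17-fold in Drd4 against Thy1 (log2 difference 1.11 ± 0.15 (SE, n = 2 per group), limma adjusted p = 0.0013). It was 2.05-fold lower in Hb9 than in Drd4 (-1.04 ± 0.15, limma adjusted p = 0.0024), and the Hb9 and Thy1 values differed by 0.08 with a 95% interval from -0.24 to 0.40. A second Cacna1c probe set read 6.82 and 6.96 in Drd4, 5.93 and 6.34 in Hb9 and 6.03 and 6.38 in Thy1. It was lower in Hb9 than in Drd4 by limma over all 34945 probe sets that name 1 gene (-0.76, adjusted p = 0.037), while its difference of 0.68 between Drd4 and Thy1 did not pass (limma adjusted p = 0.084). Summed pericyte and vessel wall markers also differed between the groups, at 307 to 1161 in Drd4, 1590 to 1981 in Hb9 and 7891 to 9056 in Thy1. Their part in the Cacna1c values was not tested.

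Cacna1d, which encodes the L-type pore Cav1.3 that opens at less depolarised voltages than Cav1.2, was also highest in Drd4. It read 8.97 and 8.61 there, 8.18 and 8.31 in Thy1, and 7.75 and 7.995 in Hb9, with no overlap between groups. It was 1.89-fold lower in Hb9 than in Drd4 (-0.92 ± 0.17 (SE, n = 2 per group), limma adjusted p = 0.013). Against Thy1 neither line passed, at 0.55 for Drd4 (limma adjusted p = 0.14) and -0.37 for Hb9 (limma adjusted p = 0.24). The call between the lines was lost without Hb9 replicate 1 (limma adjusted p = 0.134) and without Drd4 replicate 1 (limma adjusted p = 0.0891). It was also lost when all probe sets of the gene were averaged (-0.45, limma adjusted p = 0.0540), and the second Cacna1d probe set was above background on 0 of 6 arrays. Cacna1f, which encodes the L-type pore of photoreceptor and bipolar cell ribbon synapses, ranged from 5.45 to 5.80 with all groups overlapping.

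The opposite pattern belonged to Cacna2d3, which encodes an alpha2delta subunit, the extracellular partner that promotes surface delivery of the pore. It read 6.34 and 6.23 in Thy1, 5.76 and 5.59 in Hb9, and 4.70 and 4.55 in Drd4. The groups did not overlap, and neither Drd4 array was above background. Cacna2d3 fell in Drd4 against Thy1 by at least 2.32-fold when the Drd4 level is set at the background signal (measured log2 difference -1.66 ± 0.14 (SE, n = 2 per group), limma adjusted p = 0.0001). By the same bound it was at least 1.52-fold higher in Hb9 than in Drd4 (measured difference 1.05, limma adjusted p = 0.0016). In Hb9 it fell 1.52-fold against Thy1 (-0.61 ± 0.14, limma adjusted p = 0.029). That last call was lost when any 1 of the 4 Hb9 or Thy1 arrays was left out, with limma adjusted p of 0.0973 and 0.164 without Hb9 replicates 1 and 2, and 0.193 and 0.0564 without Thy1 replicates 1 and 2. The gene has 1 probe set, so no other measurement of it was at hand.

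Markers of other cells moved in the same direction as Cacna2d3 against Thy1. Microglial, vessel wall and Muller glia sums were lower in both lines, as given above. In the Muller glia list only Apoe and Vim passed against Thy1. The part of these markers in the result was not tested. Between Hb9 and Drd4, where Cacna2d3 also differed, 0 of 7 microglial and 0 of 8 vessel wall genes passed limma's threshold, and unadjusted p-values were under 0.05 for 0 and 3 of them. Those 3, Rgs5, Pdgfrb and Abcc9, read higher in Hb9, as Cacna2d3 did, by 8.06-, 3.92- and 3.28-fold. The Drd4 arrays lay far apart for them, at 9.50 and 5.01 for Rgs5. Of 5 Muller glia genes, 1 passed, Rlbp1, which was not above background on any array. Of 3 horizontal cell markers, Onecut1 and Calb1 were lower in Drd4 than in Thy1, with sums over the 3 of 121 to 181 in Drd4, 359 to 379 in Thy1 and 506 to 739 in Hb9, and Lhx1 was below background throughout. Their part in the Cacna2d3 values was likewise not tested.

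By their brightest probe sets the remaining alpha2delta genes passed the test in no comparison. Cacna2d1, whose product is a binding site of gabapentin, read 9.62 and 9.66 in Hb9, 10.15 and 9.83 in Drd4, and 9.91 and 9.63 in Thy1, with Hb9 below Drd4 and Thy1 overlapping both lines. Its Hb9 minus Drd4 difference of -0.34 did not pass (limma adjusted p = 0.268), while a second probe set, described below with the others, did. Cacna2d2, the other gabapentin-binding member, lay between 8.95 and 9.26 on all arrays, and its Hb9 minus Drd4 difference of -0.01 had a 95% interval from -0.35 to 0.32. Cacna2d4, known for its part at photoreceptor synapses, lay between 5.23 and 5.55, near the background reference.

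The 3 genes whose L-type or alpha2delta values changed most sit on chromosomes 6 and 14, and their promoters are shown because the first and second were highest in the group where the last was at background. The windows below are RefSeq sequence on GRCm38.p6, from 250 bases before to 50 bases after an annotated start, on the minus strand and 5′ to 3′. Where a gene has several starts (3 for Cacna1c and 2 for Cacna1d, against 1 for Cacna2d3), the window with the highest GC content is given. Which start these cells use was not measured. Capitals mark GC boxes (GGGCGG on either strand).
Cacna1c, chr6:119108446-119108745: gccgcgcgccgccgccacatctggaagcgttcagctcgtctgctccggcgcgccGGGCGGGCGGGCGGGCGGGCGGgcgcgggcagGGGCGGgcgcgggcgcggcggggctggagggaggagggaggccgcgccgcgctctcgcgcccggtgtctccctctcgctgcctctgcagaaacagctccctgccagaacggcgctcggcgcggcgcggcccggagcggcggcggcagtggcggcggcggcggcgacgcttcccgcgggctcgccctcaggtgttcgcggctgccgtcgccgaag
Cacna1d, chr14:30353437-30353736: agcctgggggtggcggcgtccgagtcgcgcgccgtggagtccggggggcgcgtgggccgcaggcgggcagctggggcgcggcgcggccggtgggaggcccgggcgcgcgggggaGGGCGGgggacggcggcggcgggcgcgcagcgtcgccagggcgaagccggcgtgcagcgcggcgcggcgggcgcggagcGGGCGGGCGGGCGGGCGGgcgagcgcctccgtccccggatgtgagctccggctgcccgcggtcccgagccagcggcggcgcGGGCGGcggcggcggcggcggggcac
Cacna2d3, chr14:29721815-29722114: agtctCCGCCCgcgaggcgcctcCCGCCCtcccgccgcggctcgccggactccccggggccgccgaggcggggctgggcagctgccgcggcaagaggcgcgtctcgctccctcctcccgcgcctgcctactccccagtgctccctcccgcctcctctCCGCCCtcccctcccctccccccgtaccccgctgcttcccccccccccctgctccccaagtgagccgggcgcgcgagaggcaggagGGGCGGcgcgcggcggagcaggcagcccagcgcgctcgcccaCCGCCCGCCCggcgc

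Each of the 3 windows holds 6 GC boxes, and GC content is 81.3% for Cacna1c, 87.3% for Cacna1d and 81.3% for Cacna2d3. Overlapping matches were counted singly, so each longer run of capitals holds several of them, and they are not separate sites. The choice of the window richest in GC fixes these as high, so they are not set against other genes. The other windows of Cacna1c have 51.3% GC each and that of Cacna1d has 40.3%, with 0 GC boxes in any of them, where the median GC content of all 32851 windows is 52.7% and 35.7% hold at least 1 GC box. None of the 3 windows shown holds a CCAAT box (CCAAT on either strand, 37.4% of windows) or a TATA box (TATAAA on either strand, 13.6%), but 1 of the other Cacna1c windows holds 1 CCAAT box and the other Cacna1d window holds 1 CCAAT box and 3 TATA boxes. An E-box (CAGCTG, which reads the same on both strands, 16.3%) occurs once in the Cacna1d and once in the Cacna2d3 window. By these letters the windows shown do not separate the genes that were high in Drd4 from the one that was at background there. Of the 7 channel genes called in any comparison, 6 have a window in this table, and Cacna1h has no entry.

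**Figure D2:**
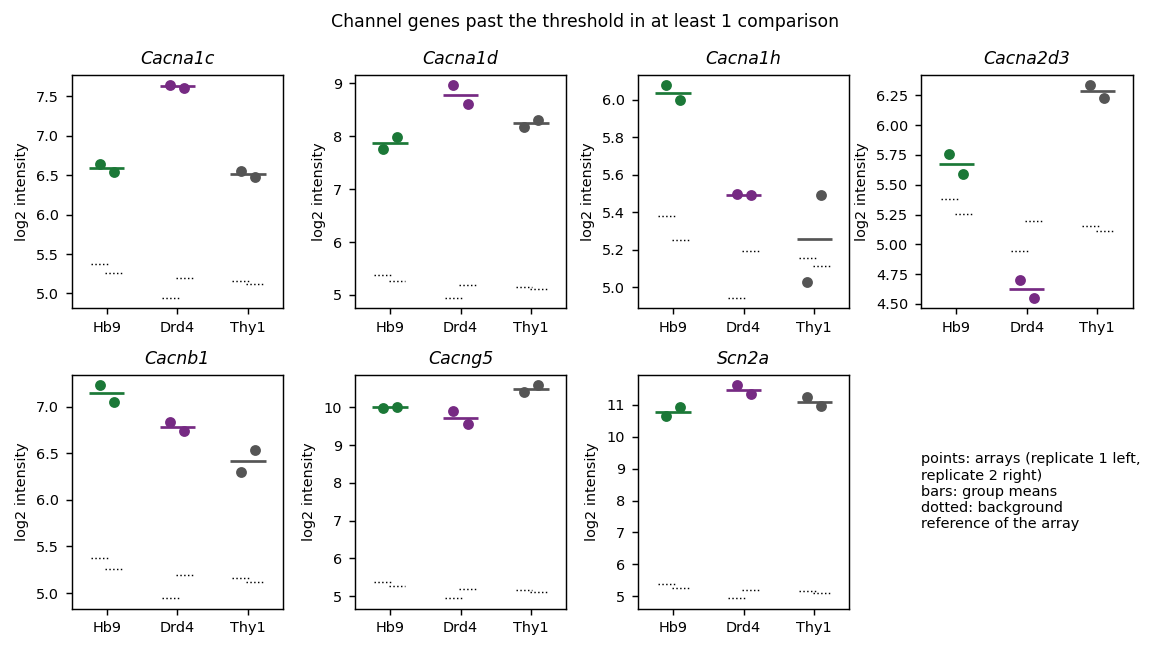
Log2 intensity (y axis, scaled separately in each panel) of the 7 channel genes past the threshold in at least 1 comparison, by group, with each array as a point, group means as bars and each array's background reference as dotted lines. Cacna1c is raised in both Drd4 arrays, and Cacna2d3 lies under the dotted lines there.

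By their brightest probe sets the presynaptic high-voltage-activated pores passed the test in no comparison. These P/Q-, N- and R-type channels carry the calcium that releases transmitter at most central synapses. Cacna1b, the N-type pore, read 9.12 and 9.24 in Hb9, 9.28 and 9.10 in Drd4, and 8.61 and 8.95 in Thy1. By this probe set both lines lay above Thy1 without overlap, by 0.40 and 0.41, but neither difference passed (limma adjusted p = 0.18 and 0.27). Hb9 and Drd4 differed by -0.01, with a 95% interval from -0.38 to 0.36. The other Cacna1b probe sets, above background on all 6 arrays, gave 0.41, -0.15 and 0.03 in Hb9 against Thy1. They gave 0.36, 0.33 and -0.006 in Drd4 against Thy1, and 0.05, -0.48 and 0.03 in Hb9 against Drd4. None of these passed. Cacna1a, the P/Q-type pore, lay between 8.35 and 8.80 with overlapping groups, and none of its intervals reached past 0.53 in either direction. Another Cacna1a probe set, above background on all 6 arrays, was higher in Hb9 than in Thy1 (0.71, limma adjusted p = 0.0467). A further one, also above background on all 6, differed by -0.00055. Cacna1e, the R-type pore, ranged from 6.89 to 7.63, and both of these values were Thy1 arrays.

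Among T-type pores, which open near the resting potential and support rebound firing, Cacna1h (Cav3.2) was highest in Hb9. It read 6.08 and 6.00 in Hb9, 5.50 and 5.49 in Drd4, and 5.03 and 5.49 in Thy1. Both Hb9 arrays stood above all others, Drd4 and Thy1 replicate 2 were nearly equal, and Thy1 replicate 1 was not above background. Cacna1h rose in Hb9 by 1.71-fold against Thy1 (log2 difference 0.78 ± 0.17 (SE, n = 2 per group), limma adjusted p = 0.023). Its difference between Hb9 and Drd4 was 0.54 (limma adjusted p = 0.091). The call against Thy1 was lost without Hb9 replicate 1 (limma adjusted p = 0.140), Hb9 replicate 2 (0.0781) or Thy1 replicate 1 (0.183), and the difference between the lines passed without Thy1 replicate 2 (0.0494). A second Cacna1h probe set, above background on 2 of 6 arrays, differed by 0.19 between Hb9 and Thy1. Cacna1g (Cav3.1) ranged from 6.75 to 7.32 over all arrays, and Hb9 minus Thy1 was 0.13 with a 95% interval from -0.28 to 0.54.

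Of the beta subunits, which sit on the cytoplasmic side of the pore and set its trafficking and inactivation, 1 of 3 rose in Hb9. Cacnb1 read 7.23 and 7.05 in Hb9, 6.84 and 6.74 in Drd4, and 6.30 and 6.54 in Thy1, in that order with no overlap. It rose 1.65-fold in Hb9 against Thy1 (0.72 ± 0.16 (SE, n = 2 per group), limma adjusted p = 0.025), and Drd4 against Thy1 stood at 0.37 (limma adjusted p = 0.31). This rise rests on 1 probe set: the other Cacnb1 probe set that was above background read between 6.52 and 6.69 on all arrays and differed by 0.03. With all probe sets averaged the difference was 0.26 (limma adjusted p = 0.216). The call was also lost without Hb9 replicate 1 (limma adjusted p = 0.191), Hb9 replicate 2 (0.0745) or Thy1 replicate 1 (0.186).

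Cacnb4, the beta subunit whose loss causes ataxia and seizures in mice, read 7.98 and 8.62 in Hb9, 9.29 and 8.92 in Drd4, and 8.92 and 8.74 in Thy1. Hb9 was lowest, and its arrays differed from each other by 0.64, the widest gap of any channel gene in that group. The difference between the lines was -0.81 ± 0.22 and did not pass (limma adjusted p = 0.062). It passed without Hb9 replicate 2 (limma adjusted p = 0.0275), without Drd4 replicate 2 (0.0430) and with all probe sets averaged (0.0281). Cacnb2, the main cardiac beta subunit, lay between 5.82 and 6.12 with overlapping groups.

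The gamma genes include the transmembrane AMPA receptor regulatory proteins, which carry glutamate receptors to the synapse more than they alter calcium channels. Cacng5, one of these, read 10.41 and 10.58 in Thy1, 9.99 and 10.02 in Hb9, and 9.91 and 9.55 in Drd4. All arrays of both lines were below Thy1, and Drd4 was lowest. Cacng5 fell in Drd4 by 1.70-fold (-0.77 ± 0.15 (SE, n = 2 per group), limma adjusted p = 0.014), and the difference of -0.49 in Hb9 did not pass (limma adjusted p = 0.085). The call was lost without Drd4 replicate 2 (limma adjusted p = 0.0992) and without Thy1 replicate 2 (0.0881). In the same comparison 7 of 7 microglial genes, 5 of 8 vessel wall genes and 2 of 5 Muller glia genes (Apoe and Vim) fell. Their part was not tested.

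Cacng2, which encodes stargazin, read 8.10 and 8.21 in Drd4, 7.85 and 7.84 in Hb9, and 7.59 and 7.58 in Thy1. By this probe set the groups did not overlap, but Drd4 minus Thy1 (0.58 ± 0.15) just missed the threshold (limma adjusted p = 0.052). It passed under 4 of 16 other settings, with limma adjusted p from 0.028 to 0.048. With all probe sets averaged it was 0.41 (limma adjusted p = 0.12). The other Cacng2 probe sets, above background on all 6 arrays, gave 0.32 and 0.34 (limma adjusted p = 0.47 and 0.50). In Hb9 minus Thy1 they gave -0.09 and -0.13, where the brightest gave 0.26. Among the other gamma genes, Cacng3, Cacng4, Cacng7 and Cacng8 were above background in every group, while Cacng1, the skeletal muscle subunit, and Cacng6 were above it on some arrays. None of these 6 passed in any comparison, and their differences lay between -0.40 and 0.39.

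By their brightest probe sets, 1 sodium channel gene was called in any comparison, a count near the background share and no result about the family. Against Thy1, 0 of 11 passed by limma in Hb9 and 0 of 11 in Drd4, and unadjusted p-values from limma were under 0.05 for 0 and 2 of them. Between the lines 1 of 11 was lower in Hb9 and 0 higher, with unadjusted p-values under 0.05 for 4. The called share of all genes, both directions together, was 6.71%, 5.47% and 6.12% in these comparisons. That gene was Scn2a (Nav1.2), an alpha subunit of axon initial segments, common early in development. It read 10.64 and 10.92 in Hb9, 11.60 and 11.34 in Drd4, and 11.23 and 10.96 in Thy1. Scn2a was 1.61-fold lower in Hb9 than in Drd4 (-0.69 ± 0.15 (SE, n = 2 per group), limma adjusted p = 0.024), with Thy1 between them. The call was lost without Hb9 replicate 1 (limma adjusted p = 0.212) and without Drd4 replicate 1 (0.131).

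Scn1a (Nav1.1) and Scn8a (Nav1.6) are the other main alpha subunits of central axons, Nav1.6 being that of mature nodes of Ranvier. Scn1a read 9.20 and 9.46 in Hb9, 10.19 and 9.63 in Drd4, and 9.71 and 9.44 in Thy1, so the Drd4 arrays stood above Hb9 and overlapped Thy1. Its difference between the lines was -0.58 (limma adjusted p = 0.13) by this probe set. The difference was -0.85 without Drd4 replicate 2 and -0.30 without Drd4 replicate 1. With all Scn1a probe sets averaged it was -1.24 and passed (limma adjusted p = 0.0025). That average takes in a probe set that was not above background on any array, and another with a wider gap, described below. Scn8a read 9.38 and 9.76 in Hb9, 10.19 and 9.85 in Drd4, and 9.64 and 9.29 in Thy1, and Drd4 minus Thy1 was 0.55 (limma adjusted p = 0.16). For Scn8a both Drd4 arrays stood above all others, and Hb9 and Thy1 overlapped.

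The other sodium channel genes overlapped between groups on most counts. Scn3a (Nav1.3), typical of the embryonic and early postnatal brain, lay between 10.44 and 10.81, and its Hb9 minus Thy1 difference of -0.22 had a 95% interval from -0.54 to 0.09. Scn9a (Nav1.7) lay between 7.65 and 8.29, both ends being Thy1 arrays. Scn11a (Nav1.9), best known from sensory neurons, lay between 5.82 and 6.35. Of the beta subunits, Scn3b lay between 10.15 and 10.76, and Scn2b, which is linked to the pore by a disulphide bond, between 8.78 and 9.53. Scn7a, a sodium-sensing member of the alpha family, read 5.62 and 7.13 in Drd4, a gap of 1.51 that was the widest of any channel gene in that group.

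**Figure D3:**
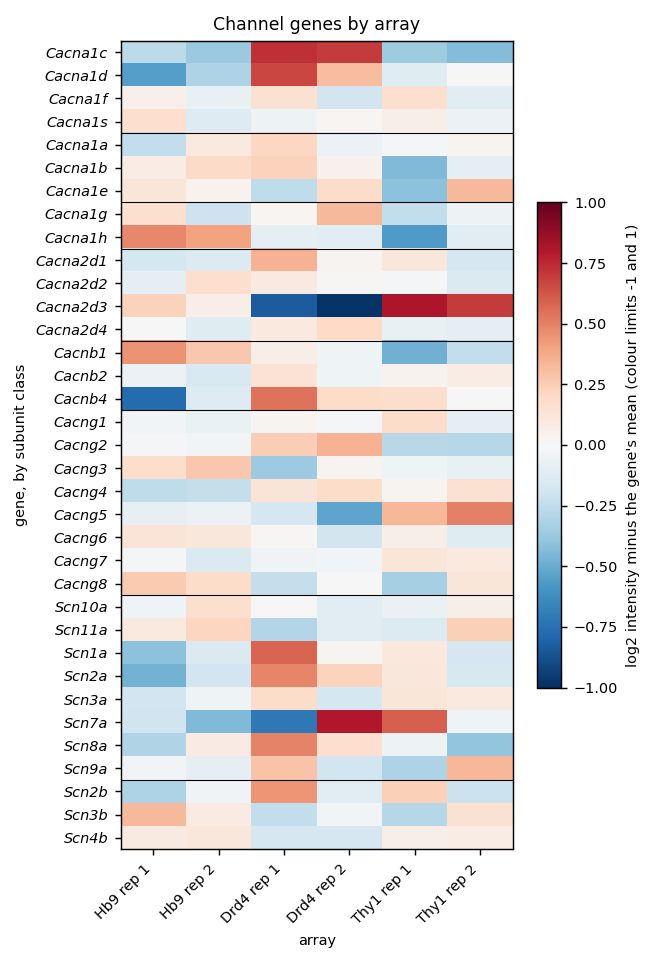
Log2 intensity of each channel gene on each of the 6 arrays minus the gene's mean over the arrays (colour, limited at -1 and 1), with genes grouped by subunit class. Cacna1c and Cacna1d are red in both Drd4 columns and Cacna2d3 is blue there, and Scn1a, Scn2a and Scn8a are each reddest in Drd4 replicate 1.

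Different probe sets of 1 gene gave different answers in the Hb9 comparisons. All 85 channel probe sets were therefore tested in a fit over 34945 probe sets. In Hb9 against Thy1, 3 of 85 were higher and 5 lower, where 2.99% and 4.13% of all probe sets were. In Drd4 against Thy1, 2 were higher and 2 lower, where 1.32% and 3.11% were. In Hb9 against Drd4, 1 was higher and 11 were lower, where 3.56% and 3.65% were. The 11 belong to 7 genes: Cacna1c, Cacna1d, Cacna2d1, Cacnb4, Scn1a, Scn2a and Scn9a. They include an Scn1a probe set above background on 0 of 6 arrays, which shows no measured fall. It is also among the 5 lower in Hb9 against Thy1. The Scn9a probe set was above background on 4 arrays, none of them Hb9. Of the 2 higher in Drd4, an Scn8a probe set was above background on 2 of 6 arrays. Probe sets of 1 gene share its transcripts and are not replicates.

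The widest gaps were in Scn1a and Scn2a, singled out after their values were seen. A second Scn1a probe set read 6.09 and 6.33 in Hb9, 8.71 and 8.54 in Drd4, and 8.15 and 8.09 in Thy1. By that probe set Scn1a was lower in Hb9, with log2 differences of -1.90 against Thy1 (limma adjusted p = 0.000184) and -2.41 against Drd4 (limma adjusted p = 2.74e-05), where the gene's brightest probe set gave -0.25 and -0.58. Another Scn2a probe set, 1 of 4, read 6.21 and 6.87 in Hb9, 9.01 and 8.36 in Drd4, and 8.30 and 8.15 in Thy1. It gave -1.68 against Thy1 (limma adjusted p = 0.00388) and -2.14 against Drd4 (limma adjusted p = 0.000674), where the brightest gave -0.31 and -0.69. In both genes the arrays of Hb9 stood far below all others by these probe sets and near them by the brightest. The remaining Scn2a probe sets, above background on all 6 arrays, showed no such gap. They gave 0.19 and -0.49 in Hb9 against Thy1, and neither passed. Against Drd4 they gave -0.26 and -0.59, and only the latter passed (limma adjusted p = 0.043). In Drd4 minus Thy1 the probe sets with the wide gaps gave 0.51 for Scn1a and 0.46 for Scn2a, beside 0.33 and 0.38 by the brightest.

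Cacnb4 showed the same kind of gap on a smaller scale. One of its probe sets read 5.79 and 5.96 in Hb9, 7.01 and 7.29 in Drd4, and 6.74 and 6.91 in Thy1. It was lower in Hb9 by -0.95 against Thy1 (limma adjusted p = 0.00825) and by -1.27 against Drd4 (limma adjusted p = 0.00119). A further Cacnb4 probe set, above background on all 6 arrays, gave -0.26 and -0.35. Neither passed (limma adjusted p = 0.60 and 0.47). A second Cacna2d1 probe set was lower in Hb9 than in Drd4 (-0.83, limma adjusted p = 0.0101). The called Cacna1a probe set described above went the other way, being higher in Hb9 than in Thy1.

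**Figure D4:**
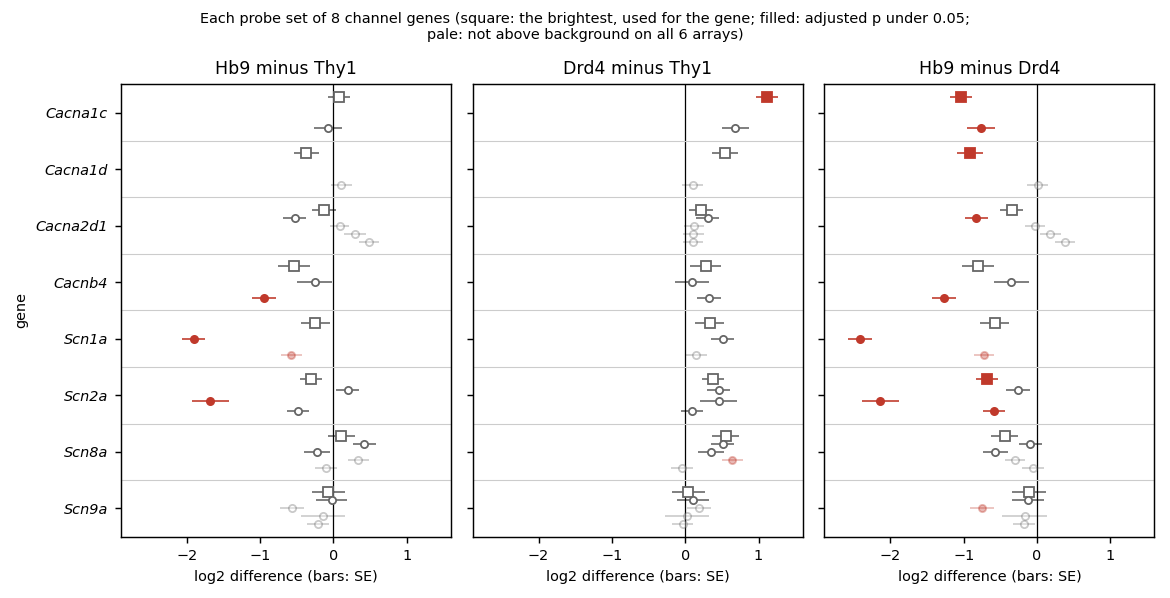
Log2 difference of every probe set of 8 channel genes in the 3 comparisons, with bars of 1 standard error. Squares are the brightest probe set of the gene, filled symbols have an adjusted p under 0.05, and pale symbols were not above background on all 6 arrays. In the panels with Hb9, 1 probe set each of Scn1a and Scn2a lies at -1.68 or lower while the brightest lies between -0.69 and -0.25, and in Drd4 minus Thy1 all probe sets of both genes lie between 0.10 and 0.51.

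The gap between probe sets of 1 gene was also taken over the whole array. It was measured on probe sets above background on all 6 arrays, as each probe set's difference minus that of its gene's brightest. For channel genes (22 probe sets of 14 genes), 5 lay more than 0.5 below the brightest in Hb9 minus Thy1 (22.7%), 2 in Hb9 minus Drd4 (9.09%) and 0 in Drd4 minus Thy1. For all genes (7523 probe sets of 4741 genes) the shares were 12.9%, 13.5% and 2.94%. Gaps ran upward as well: 3 of the 22 channel probe sets lay more than 0.5 above the brightest in Hb9 minus Thy1 (13.6%), 1 in Hb9 minus Drd4 (4.55%) and 0 in Drd4 minus Thy1, beside 7.75%, 7.54% and 3.26% over all genes. The 18S ribosomal RNA and Gapdh ratios given above also set the Hb9 arrays apart from the other 4, while that for Actb did not. Their part in these gaps was not tested. Where each probe set lies along its transcript is not used here.

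Genes for proteins that bind, anchor or regulate these channels were examined beside them. Of 42 such genes listed (among them ankyrins, fibroblast growth factor homologous factors, calmodulins, RGK proteins, ryanodine receptors and AMPA receptor subunits), 37 were measured. In Hb9 against Thy1, 3 rose and 0 fell by limma. In Drd4 against Thy1, 1 rose, and 1 passed with a lower reading (Rrad, another inhibitor of calcium channels) but was not above background on any array, so it shows no measured fall. Hb9 exceeded Drd4 in 1 and was lower in 2. These are 8.11%, 5.41% and 8.11% of the list, beside 6.71%, 5.47% and 6.12% of all genes. Unadjusted p-values from limma were under 0.05 for 9, 10 and 12 of the 37 (24.3%, 27% and 32.4%). Of all genes 23.1%, 14.5% and 19.7% were.

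Ryr2, the ryanodine receptor that releases calcium from internal stores, read 8.52 and 8.87 in Hb9, 9.19 and 9.01 in Drd4, and 7.93 and 7.84 in Thy1. Both lines were above Thy1, by 0.81 ± 0.17 in Hb9 (limma adjusted p = 0.021) and 1.22 ± 0.17 in Drd4 (limma adjusted p = 0.0018). Cabp1, a calmodulin-like calcium sensor that binds calcium channel pores, read 5.61 and 5.60 in Hb9 and was not above background on any Drd4 or Thy1 array. It was at least 1.38-fold higher in Hb9 than in Thy1 (measured difference 1.02, limma adjusted p = 0.0018) and at least 1.45-fold higher than in Drd4 (measured difference 1.49, limma adjusted p = 9.36e-05).

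Rem2, an RGK protein that inhibits high-voltage-activated calcium channels through the beta subunit, read 7.98 and 7.96 in Hb9, 7.10 and 7.56 in Drd4, and 6.84 and 7.14 in Thy1. It rose in Hb9 against Thy1 by 0.98 ± 0.19 (limma adjusted p = 0.015), and both Hb9 arrays stood above all others. Fgf13, which binds the tail of sodium channel pores, was lower in Hb9 than in Drd4 (-0.69 ± 0.17, limma adjusted p = 0.039), as was Stac2, an adaptor of L-type channels (-0.61 ± 0.15, limma adjusted p = 0.036). Fgf13 read 9.67 and 9.94 in Hb9, 10.69 and 10.29 in Drd4, and 10.16 and 10.33 in Thy1, so Drd4 and Thy1 overlapped. Ryr2, Rem2 and Fgf13 have 2 probe sets each, and only the brightest is given here. Fewer partner genes were called in each comparison when some single arrays were left out, as given below, and which ones is not given.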

How the data were processed

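Expression was measured on 6 Affymetrix arrays of sorted mouse retinal cells, after 2 rounds of RNA amplification per the labels' protocols. The authors deposited 1 linear intensity per probe set and array. The summary method, the normalisation and the software behind them are stated in none of the sources used here. Log2 was taken with no further scaling. Depth does not apply, and the number of arrays (2 per group) limits the precision.

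Of 45101 probe sets, 34945 name 1 gene, 932 several and 9160 none. The brightest probe set stood for each of 18193 genes. The limma package (version 3.58.1, R 4.3.3) fitted a mean per group over all 6 arrays with trended moderation, two-sided, with Benjamini-Hochberg adjustment over all genes and a threshold of 0.05. Litters differed within a group, so the spread between its arrays takes in litter, any difference in sex, sorting, amplification and array together. These parts cannot be told apart. The p-values rest on that spread after limma moderated it with the spread of all genes. Over all genes the widest log2 gap between the Hb9 arrays was 5.19, in the Y-linked gene Eif2s3y, and sex was not a term of the fit. The script was tested on simulated data. Where a group had no array above the background reference (the brightest Bacillus control probe set), the reference or the probe's own value, whichever was higher, gave an "at least" fold. The bacterial controls were taken as absent from the samples, since no spike-in is stated.

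The members and lists were chosen with earlier results of these data known. Genes named are those past the threshold, Cacna1c, Cacna2d3 and Cacna1h, the 2 brightest of each subunit class, those at background everywhere, and up to 4 called partner genes a comparison. Other members named were chosen after their values were seen. Promoter windows are from RefSeq. Alternatives were quantile normalisation, median centring, mean of all probe sets, dim genes left out, no intensity trend, robust moderation, array weights, a replicate block, an offset of 16, only the 2 groups compared, and each array left out.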

Additional observations from a re-analysis of the deposited data

How the results depend on the processing

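Cacna1c and Cacna2d3 passed limma's threshold in Drd4 against Thy1 and in Hb9 against Drd4 under all 16 alternatives, and the other 6 called gene results did not. No sign changed in 288 gene values. These came from 18 gene results picked for being called or for the size of their difference. Several alternatives leave a difference as it is, so the kept signs were largely fixed in advance. Averaging all probe sets left 1 channel gene higher in Hb9 than in Thy1, and it or quantile normalisation gave 2 lower. Drd4 against Thy1 had 2 higher with median centring, dim genes left out, no intensity trend or robust moderation, the added gene being Cacng2. Counting a gene where any probe set was called was an alternative chosen after seeing the data. It gave 3 higher and 4 lower in Hb9 against Thy1 and 2 higher in Drd4 against Thy1. In Hb9 against Drd4 it gave 7 lower. Such counts take in probe sets that were not above background on all arrays. Partner genes called in Drd4 against Thy1 numbered 4 with quantile normalisation or the mean of all probe sets and 1 with dim genes left out.

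With each array left out in turn, Hb9 against Thy1 had 0 to 2 channel genes higher, 0 to 1 lower and 1 to 3 partner genes called. Drd4 against Thy1 had 1 higher, 1 to 2 lower and 1 to 3 partner genes. Hb9 against Drd4 had 1 to 2 higher, 1 to 5 lower and 1 to 4 partner genes. A lone array left in a group was assumed to vary like the others. A replicate block left the 6 counts of channel genes as they were (2 higher and 1 lower in Hb9 against Thy1) and gave 2 partner genes in Hb9 against Drd4. The replicate numbers do not pair the arrays: deviations of same-numbered arrays correlated at -0.28, -0.19 and 0.37. Under quantile normalisation 457 of all genes were higher and 579 lower in Hb9 against Thy1, beside 640 and 580.

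Those 6 called results, all under 2-fold, each fell short of the threshold under at least 1 alternative, and probe sets at the background reference give bounds only.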

Other observations

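In Drd4, replicate 1 read above replicate 2 for 8 of 11 sodium channel genes, against 48.4% of all genes. In Hb9 it did so for 3 of 11, against 53.3%, and in Thy1 for 6 of 11, against 47.7%. The median gap between replicates over the 11 was 0.25 in Hb9, 0.33 in Drd4 and 0.34 in Thy1. Over the 24 calcium channel genes it was 0.11, 0.19 and 0.15, and over all genes 0.14, 0.17 and 0.16. The genes were grouped after their values were seen, and no difference between the families was tested.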
